A study of Mus musculus with 2 samples.

Results

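Colony-stimulating factors are secreted or membrane-bound proteins that keep myeloid cells alive and direct their growth. The 9 genes described here are the ligands Csf1, Csf2 and Flt3l and the receptor chains Csf1r, Csf2ra, Csf2rb, Csf2rb2, Csf3r and Flt3. They were chosen by gene symbol from the 31053 genes of the count table, and all 9 were found. CSF1 and FLT3 ligand act through the receptor tyrosine kinases CSF1R, which maintains macrophages, and FLT3, which supports the growth of dendritic cells. GM-CSF, the product of Csf2, binds its own alpha chain, CSF2RA, and signals through the beta chain CSF2RB, which the IL-3 and IL-5 receptors share. Mice also have CSF2RB2, a beta chain that serves the IL-3 receptor alone, and CSF3R is the receptor of G-CSF, best known in neutrophils.

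Transcript 3′ ends were sequenced in single CD45+ cells from tumours under the skin of C57BL/6 mice. The tumours came from MTC-Q1, a mouse oral cancer line, either unmodified (WT) or with the microRNA gene miR-21 knocked out, and had grown for 2 weeks. Both groups were given cisplatin at 5 mg/kg, a drug that crosslinks DNA, and cells were taken after 72 hours, so no tumour here was untreated. Dead cells were removed and CD45+ cells were selected with beads, and each group gave 1 library. The labels do not say how many mice or tumours, or how many knockout clones, stand behind a library.

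The count table marks each barcode with library number 1 or 2, and no source used here ties a number to WT or miR-21 KO. The libraries are therefore called library 1 and library 2, and no direction between the genotypes can be given. With 1 library per group there is no test and no p-value. Levels are UMIs (unique transcript molecules) of a gene per 1000000 UMIs of a cell type in a library, abbreviated CPM. Where a pair of values is given, the first is from library 1 and the second from library 2. The figures in parentheses are exact 95% intervals (Poisson for levels, Clopper-Pearson for shares, conditional binomial for ratios) and cover counting error only. Where no UMI was counted, the limit given is the level that 3 UMIs would have.

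The libraries were of unequal depth and makeup. Library 1 held 4977 cells at a median of 6999 UMIs, and library 2 held 6740 cells at a median of 14801. Cells with the markers of naive-type T cells made up 2728 cells of library 1 and 34 of library 2, and B cell-like cells 464 and 1. Macrophage-like cells numbered 367 and 1947, and monocyte-like cells 146 and 859. Neutrophil-like cells, in which Csf3r is best known, numbered 0 and 4, and these 4 held 9 Csf3r UMIs. Cells called monocyte-like or macrophage-like were not counted as neutrophil-like, and 35 cells lay over the neutrophil marker limit.

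Cell types were cut from summed marker levels per cell, so each is a range of cells and not a discrete type, and all names mean "like". Within 20% of the limit lay 953 cells for the monocyte markers, 92 for the macrophage markers, 299 for the cDC2 markers and 24 for the pDC (plasmacytoid dendritic cell) markers. The dendritic types were small in library 1, with 21 pDC-like, 36 cDC2-like, 18 cDC1-like and 11 migratory dendritic cell-like cells, against 34, 209, 80 and 72 in library 2. A cell that met both the cDC2 and the monocyte limits was called cDC2-like. The cDC2-like cells had medians of 11.67 cDC2 and 32.97 monocyte marker UMIs per 10000, where the monocyte limit was 25. Their levels are therefore not those of cells free of monocyte markers. Despite the CD45 selection, 88 cells of library 1 and 544 of library 2 passed no leukocyte gate and had under 1 UMI of Ptprc, the gene of CD45, per 10000. They were divided by a fibroblast marker list (Col1a1, Col1a2, Col3a1, Dcn, Lum, Pdgfra and Postn) into a collagen-rich range of 36 and 42 cells and a collagen-poor range of 52 and 502 cells. Ptprc stood at 8.62 and 11.6 CPM in the former and at 6.41 and 8.495 CPM in the latter, against 526 and 452 CPM in macrophage-like cells. The summed fibroblast markers were at 26246 and 42685 CPM in collagen-rich and 5095 and 2937 CPM in collagen-poor cells. Of the 7 keratin and epithelial markers, 3 and 4 had no UMI in the collagen-poor cells, and their sum was 44.8 and 2.45 CPM. These cells are called Ptprc-low, and whether they are tumour cells or stroma was not tested.

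The upstream sequences of 3 members are shown because their transcripts were highest in 3 different compartments: Csf1 in Ptprc-low cells, Flt3l in NK and T cells, and Csf2rb2 in pDC-like and other myeloid cells. Each is the 250 bases before the transcription start given by RefSeq on GRCm38.p6, written 5′ to 3′ on the gene's own strand, which is the minus strand for all 3. Capitals mark a match on either strand to GAGGAA, the core bound by PU.1 (a myeloid transcription factor encoded by Spi1), or to GAAA, any 2 bases and GAAA, a form of the interferon-stimulated response element.

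Csf1 (chr3:107760470-107760719): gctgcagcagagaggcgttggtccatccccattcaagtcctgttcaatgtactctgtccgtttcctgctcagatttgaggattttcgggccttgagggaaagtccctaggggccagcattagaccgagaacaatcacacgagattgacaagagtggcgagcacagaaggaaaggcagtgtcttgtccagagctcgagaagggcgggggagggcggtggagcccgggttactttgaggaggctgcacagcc
Flt3l (chr7:45136433-45136682): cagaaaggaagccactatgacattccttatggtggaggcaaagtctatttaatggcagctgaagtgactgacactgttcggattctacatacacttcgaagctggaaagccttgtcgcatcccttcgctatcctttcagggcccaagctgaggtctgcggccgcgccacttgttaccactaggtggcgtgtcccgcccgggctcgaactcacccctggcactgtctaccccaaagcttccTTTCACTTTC
Csf2rb2 (chr15:78305722-78305971): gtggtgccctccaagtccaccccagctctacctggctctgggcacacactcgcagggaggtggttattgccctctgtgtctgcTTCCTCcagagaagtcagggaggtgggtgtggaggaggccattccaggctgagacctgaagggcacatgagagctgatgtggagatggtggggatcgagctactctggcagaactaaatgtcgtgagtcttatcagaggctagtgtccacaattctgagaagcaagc

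The Csf2rb2 window held 1 GAGGAA match, on the opposite strand and starting 167 bases before the start site. The Flt3l window held 1 match to the paired GAAA, in its last 10 bases. The Csf1 window held neither, nor did any of these 3 windows hold the AP-1 sequence TGANTCA. Among 7 members with such a window, GAGGAA was also found in Csf2ra (2 matches) and Csf3r (1), and not in Csf2 or Flt3. Of 32851 mouse promoters cut in the same way, 23.3% held GAGGAA, 6.75% TGANTCA and 2.98% the paired GAAA. A match describes the letters only, and binding was not measured.

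Csf1 (chr3:107741048-107760469, minus strand of GRCm38), the ligand of CSF1R, was highest in the Ptprc-low cells of both libraries. In collagen-rich cells it was at 172 CPM (151 to 196) and 196 CPM (174 to 221). In collagen-poor cells it was at 164 CPM (151 to 178) and 178 CPM (174 to 183). These 4 intervals overlap, so neither range stood above the other beyond counting error. Monocyte-like cells had 15.2 CPM (9.77 to 22.7) and 15.1 CPM (12.4 to 18.1), and macrophage-like cells 12.8 CPM (10.3 to 15.8) and 11.03 CPM (9.96 to 12.2). The leukocyte types of at least 50 cells all lay below the Ptprc-low cells, with CD4 T-like cells the nearest in library 1 at 30.7 CPM (20.04 to 44.9), where library 2 had 8.93 CPM (3.85 to 17.6). Ptprc-low cells made up 1.77% of the cells of library 1 and held 9.93% of all its UMIs and 76.1% of its Csf1 UMIs. In library 2 they made up 8.07% of cells and held 25.2% of all UMIs and 83.3% of those of Csf1.

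The Csf1 level of Ptprc-low cells was spread over most cells and over the range of fibroblast markers. As sequenced, 97.2% and 88.1% of collagen-rich and 84.6% and 90.2% of collagen-poor cells had a Csf1 UMI. After each cell was thinned to 4000 UMIs the shares were 52.8% and 54.8%, and 36.5% and 42.03%. NK-like cells, which should have little Csf1, gave 2.21% and 1.33% after the same thinning. Ptprc-low cells were also the deepest, with collagen-poor medians of 64933 and 51604 UMIs against 11830 and 16448 in NK-like cells. Across 5 bins of fibroblast markers, library 2 ran from 159 to 196 CPM. Library 1 ran from 143 to 239 CPM in 4 bins, and its lowest bin of 5 cells held 1 UMI. Among the 44 library 2 cells with the fewest fibroblast markers, 13 held all 368 Csf1 UMIs. Cycling collagen-poor cells had 182 and 179 CPM and those not cycling 146 and 176 CPM. Il34, the second ligand of CSF1R, was highest in the collagen-poor cells of both libraries among types of at least 50 cells, at 13.6 CPM and 10.1 CPM. Kitl, the ligand of the related receptor KIT, was also highest there among types of at least 50 cells, at 20.3 CPM and 17.2 CPM. The smaller collagen-rich range had more Kitl, at 23.7 CPM and 36.96 CPM. In library 2 Kitl went from 11.1 CPM in the bin with the fewest fibroblast markers to 36.96 CPM in the bin with the most, and Il34 lay lowest in these same end bins, at 4.74 and 2.17 CPM. Library 1 took another course: Kitl was highest in its second bin of 7 cells, at 39.8 CPM, and between 14.3 and 23.7 CPM in the 3 bins above, where Il34 lay between 10.1 and 15.3 CPM. Csf3, the ligand of CSF3R, had 5 UMIs in library 1 and 22 in library 2 over gated types of at least 10 cells. Of the 22, 9 lay in 1 cell.

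**Figure D1:**
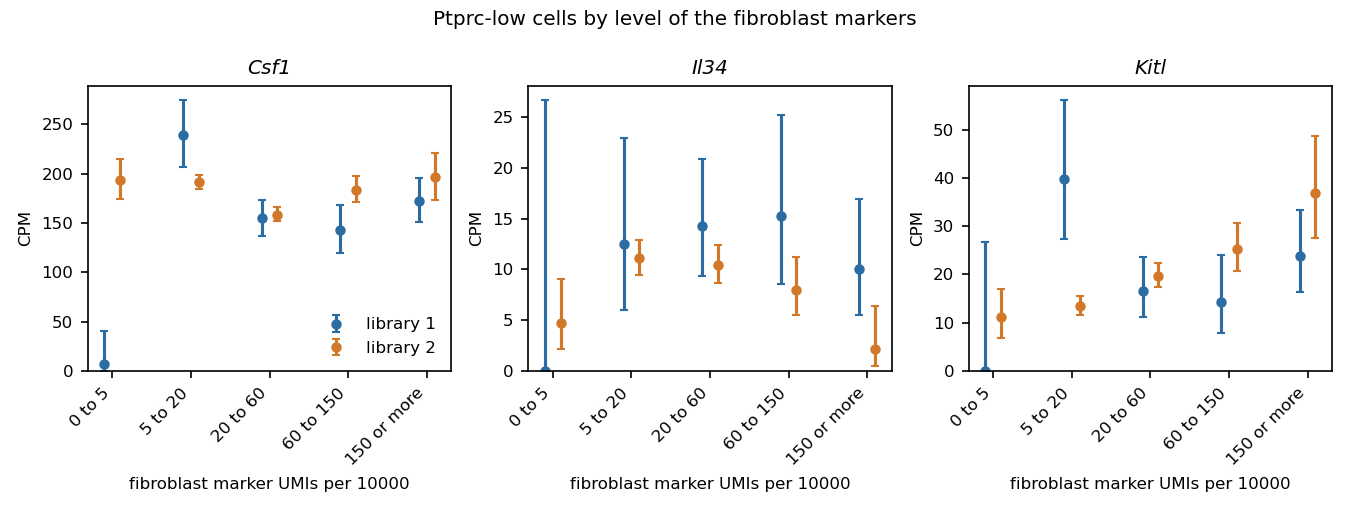
Levels of Csf1, Il34 and Kitl (CPM, vertical axes) in Ptprc-low cells binned by fibroblast marker UMIs per 10000 (horizontal axes), with exact 95% Poisson intervals, library 1 in blue and library 2 in orange. Csf1 lies between 143 and 239 CPM in 9 of the 10 points, and the exception is a bin of 5 cells.

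Csf2 (chr11:54247271-54249667, minus strand), which encodes GM-CSF, was rare in this material and concentrated in few cells. Library 1 held 86 Csf2 UMIs in 31 cells and library 2 held 206 in 91 cells. The 5 cells with the most held 64.0% and 27.7% of these. CD4 T-like cells of library 1 led at 20.1 CPM (11.7 to 32.1), where 1 cell held 12 of 17 UMIs, and the level without it was 5.95 CPM. NK-like cells of library 1 followed at 13.8 CPM (9.25 to 19.8), with 25 of 29 UMIs in 1 cell and 1.92 CPM without it. In library 2 the same types had 1.12 CPM (0.0283 to 6.22) and 1.49 CPM (0.984 to 2.17). There CD8 T-like cells led at 3.87 CPM (2.76 to 5.27), with 19 of 40 UMIs in 1 cell and 2.04 CPM without it. Gamma-delta T-like cells had 5.39 CPM (1.75 to 12.6) and 3.42 CPM (1.64 to 6.28) and other T-like cells 5.74 CPM (2.63 to 10.9) and 3.71 CPM (2.399 to 5.47), with intervals that overlap in both libraries. No Csf2 UMI was counted in the 367 and 1947 macrophage-like cells, which allows up to 0.441 and 0.0851 CPM there. Collagen-poor Ptprc-low cells of library 2 held 67 Csf2 UMIs at 2.05 CPM (1.59 to 2.61), against 2 UMIs at 0.534 CPM (0.0646 to 1.93) in library 1, a log2 ratio of library 1 over library 2 of -1.94 (-5.02 to -0.04). The leading type of Csf2 was that given here in 7 of 10 alternatives in library 1 and in 5 of 10 in library 2. With Leiden clusters in place of gates, the level in library 2 was far higher in 1 place. It was 60.8 CPM in the cluster whose commonest gate was gamma-delta T, which held 60 library 2 cells.

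Flt3l (chr7:45129788-45136432, minus strand), the ligand of FLT3, was higher in NK and T cells than in myeloid cells and was highest in NK-like cells. These had 58.6 CPM (48.7 to 69.9) and 63.6 CPM (59.9 to 67.3). Gamma-delta T-like cells followed at 44.2 CPM (31.7 to 59.9) and 55.3 CPM (47.1 to 64.5), and their interval overlaps that of NK-like cells in both libraries. CD8 T-like cells had 36.3 CPM (28.8 to 45.2) and 50.98 CPM (46.7 to 55.5). Regulatory T-like cells had 31.1 CPM (23.4 to 40.6) and 39.9 CPM (29.9 to 52.00). The naive-type T cells that filled library 1 were lower, at 20.4 CPM (18.5 to 22.4), and B cell-like cells lower again, at 8.73 CPM (5.65 to 12.9). Macrophage-like cells had 8.39 CPM (6.35 to 10.9) and 7.601 CPM (6.72 to 8.57), and collagen-poor Ptprc-low cells 1.33 CPM (0.433 to 3.11) and 2.27 CPM (1.78 to 2.85). Thinned to 4000 UMIs, 20.6% and 21.1% of NK-like cells had a Flt3l UMI (49.3% and 62.8% as sequenced, at median depths of 11830 and 16448 UMIs). Macrophage-like cells, taken as a type with little Flt3l, gave 4.09% and 2.82% after thinning (13.1% and 11.8% as sequenced, at 16616 and 17014 UMIs). The Flt3l locus overlaps Gm45713 on the same strand, to which 5 and 7 UMIs were assigned.

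**Figure D2:**
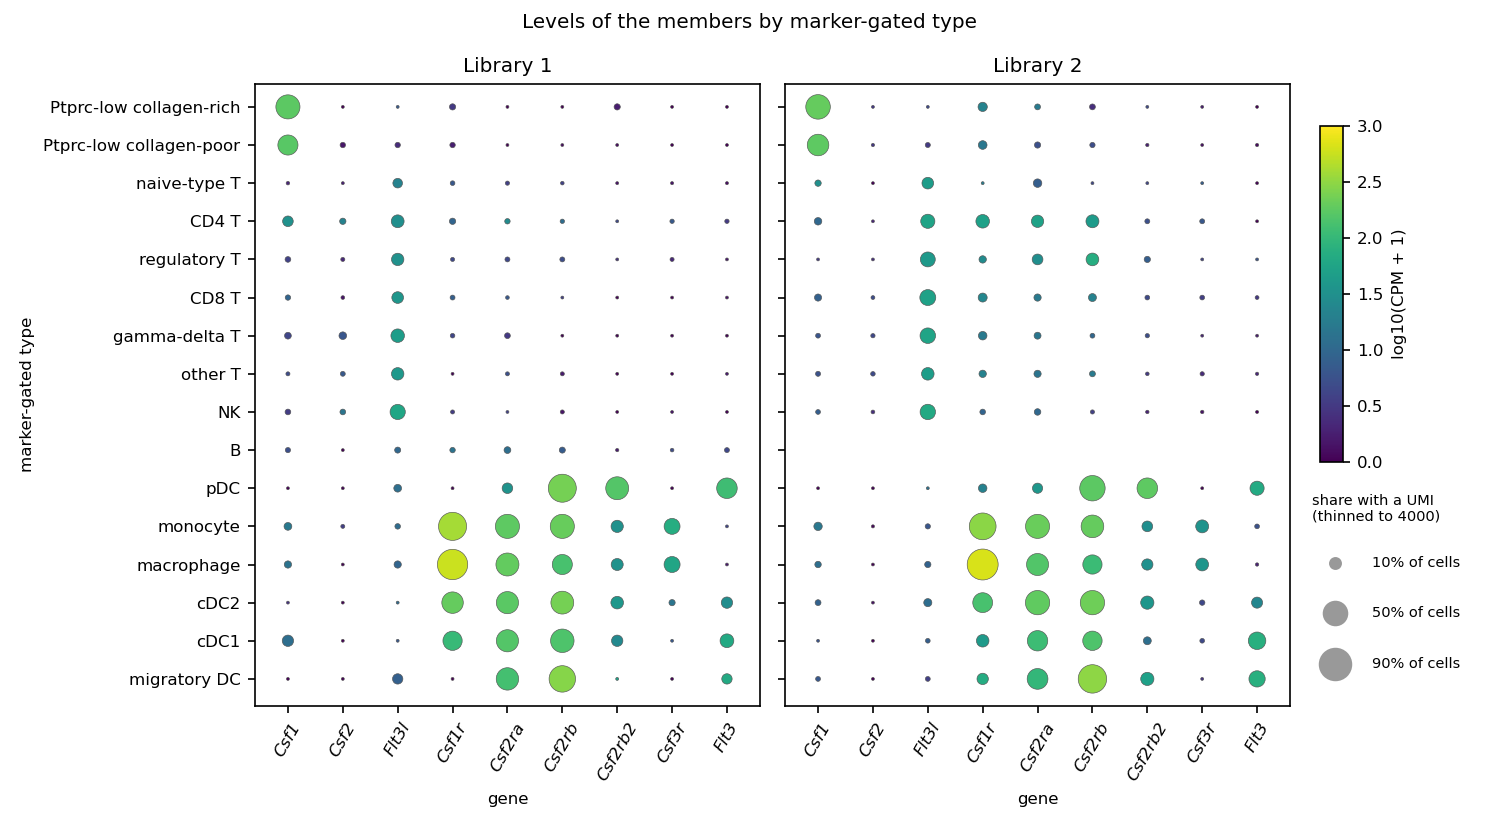
Levels of the 9 genes (columns) in 16 marker-gated types (rows) of library 1 (left) and library 2 (right). Colour gives log10(CPM + 1), dot area the share of cells with a UMI after thinning to 4000 UMIs, and types under 10 cells are blank. Csf1 stands out in the Ptprc-low rows, Flt3l in the T and NK rows, Csf1r in the monocyte and macrophage rows, and Flt3 in the pDC, cDC1 and migratory dendritic cell rows.

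Csf1r, the receptor of CSF1 and IL-34, was highest in macrophage-like cells of both libraries, under all 10 alternatives tried. The level was 572 CPM (554 to 590.1) and 664 CPM (656 to 673). Monocyte-like cells came next at 398 CPM (367 to 430.0) and 299.5 CPM (287 to 312), and the intervals of these 2 types do not overlap in either library. The conventional dendritic gates were lower, with cDC2-like cells, which overlap the monocyte range, at 194 CPM (159.7 to 233) and 132 CPM (119 to 146). cDC1-like cells had 104 CPM (73.6 to 143) and 40.4 CPM (31.3 to 51.4). Migratory dendritic cell-like cells of library 2 had 69.9 CPM (55.2 to 87.4), and the 11 of library 1 had no UMI, which allows up to 21.3 CPM. With free RNA subtracted (estimated at 16.1% and 14.9% of the UMIs of the cDC1-like and migratory cells of library 2), Csf1r was at 5.35 CPM in the former and 37.4 CPM in the latter, and at 98.9 CPM in the cDC1-like cells of library 1. Thinned to 4000 UMIs, 83.9% and 87.5% of macrophage-like cells had a Csf1r UMI (98.4% and 99.1% as sequenced). NK-like cells gave 0.735% and 2.14% after thinning (3.68% and 9.796% as sequenced). The Csf1r gene overlaps Hmgxb3 on the other strand, to which 425 and 843 UMIs were assigned over all cells.

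Csf2ra (chr19:61223957-61228429, minus strand), the GM-CSF receptor alpha chain, was found in monocytes, macrophages and conventional dendritic cells. In library 1 macrophage-like cells had 189 CPM (179 to 199), monocyte-like cells 182 CPM (161 to 204) and cDC2-like cells 168 CPM (136 to 205), with overlapping intervals. In library 2 the order changed, with monocyte-like cells at 203 CPM (193 to 214), cDC2-like cells at 185 CPM (169 to 201) and macrophage-like cells at 153 CPM (148 to 157). The last lay below the others beyond counting error. cDC1-like cells had 156 CPM (118 to 202) and 114 CPM (98.1 to 132), and migratory dendritic cell-like cells 128 CPM (75.6 to 202) and 95.4 CPM (77.99 to 115). pDC-like cells were lower in both libraries, at 33.7 CPM (15.4 to 63.96) and 38.1 CPM (18.3 to 70.04).

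Csf2rb, the shared beta chain, was highest in migratory dendritic cell-like cells. These had 283 CPM (203 to 386) and 308 CPM (276 to 342). cDC2-like cells had 233 CPM (196 to 276) and 219 CPM (203 to 237), and pDC-like cells 232 CPM (178 to 298) and 175 CPM (128 to 234). In library 1 the intervals of these 3 types overlap. In library 2 that of the migratory cells lies above those of the other two. Monocyte-like cells had 199 CPM (177 to 222) and 193 CPM (183 to 203), and macrophage-like cells were lower at 132 CPM (123 to 140.4) and 109 CPM (105 to 112). At 4000 UMIs, 63.6% and 73.6% of migratory dendritic cell-like cells had a Csf2rb UMI (90.9% and 93.1% as sequenced, at medians of 13713 and 11746 UMIs), against 0.735% and 0.816% of NK-like cells (0.735% and 2.96% as sequenced, at 11830 and 16448 UMIs).

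Csf2rb2, the beta chain of the IL-3 receptor, was highest in pDC-like cells. These had 157 CPM (113 to 213) and 179 CPM (132 to 238). Migratory dendritic cell-like cells followed at 49.6 CPM (19.9 to 102) and 49.9 CPM (37.6 to 65.01). cDC2-like cells had 37.7 CPM (23.6 to 57.1) and 36.8 CPM (30.1 to 44.5). Macrophage-like cells had 32.8 CPM (28.6 to 37.4) and 30.5 CPM (28.7 to 32.4), and monocyte-like cells 31.1 CPM (23.03 to 41.1) and 28.5 CPM (24.8 to 32.6). In both libraries the pDC interval lies above that of each other type of at least 10 cells. After thinning, 47.6% and 38.2% of pDC-like cells had a UMI (85.7% and 70.6% as sequenced, at medians of 11505 and 7068 UMIs), against 0% and 0.306% of NK-like cells (0% and 1.22% as sequenced).

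The beta chains lie side by side on chromosome 15 of GRCm38, Csf2rb at chr15:78325752-78353847 on the plus strand and Csf2rb2 at chr15:78282507-78305721 on the minus strand, and they are close copies. Of all runs of 50 bases in the longest annotated transcripts, 18.39% of those of Csf2rb and 19.02% of those of Csf2rb2 occur in the other gene. None of the runs in the last 500 bases of either transcript does, and the assay counts reads near the 3′ end. Csf2rb2 made up 40.4% (30.9 to 50.5) and 50.5% (39.97 to 61.1) of the UMIs of both chains together in pDC-like cells. The share was 19.96% (17.7 to 22.4) and 21.9% (20.8 to 23.1) in macrophage-like cells and 13.5% (10.2 to 17.5) and 12.9% (11.3 to 14.6) in monocyte-like cells. It was 13.9% (8.94 to 20.3) and 14.4% (11.9 to 17.1) in cDC2-like cells, 14.8% (6.98 to 26.2) and 7.09% (4.25 to 10.97) in cDC1-like cells and 14.9% (6.204 to 28.3) and 13.96% (10.7 to 17.8) in migratory dendritic cell-like cells. In both libraries the pDC interval lay above those of the other 5 types. Il3ra, the IL-3 receptor alpha chain, was at 22.5 CPM and 64.7 CPM in pDC-like, 36.2 CPM and 40.7 CPM in monocyte-like and 41.3 CPM and 31.3 CPM in macrophage-like cells. It was also at 21.6 CPM and 79.7 CPM in collagen-rich Ptprc-low cells. Il3, the ligand, had 0 UMIs in the gated types of at least 10 cells in either library. Mixed and ungated cells are not part of that count.

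**Figure D3:**
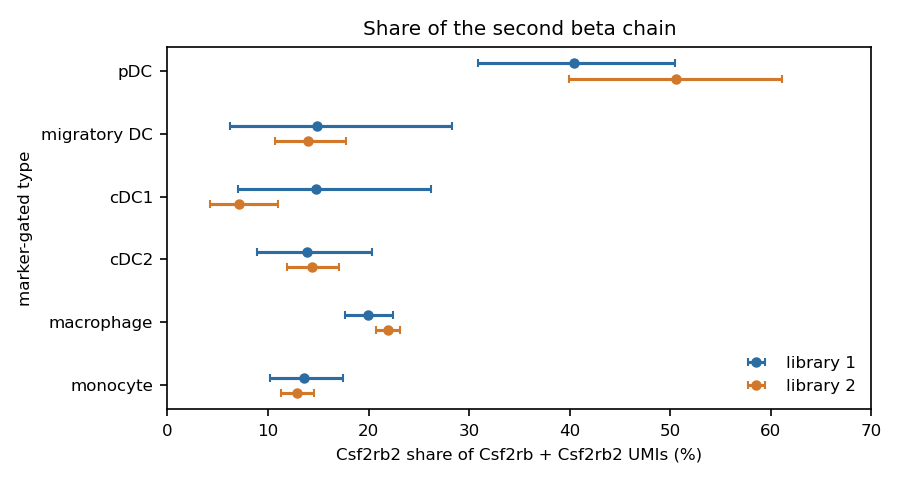
Share of Csf2rb2 among the UMIs of Csf2rb and Csf2rb2 together (horizontal axis, %) in 6 myeloid types (vertical axis), with exact 95% binomial intervals, library 1 in blue and library 2 in orange. The pDC points sit at 40.4% (30.9 to 50.5) and 50.5% (39.97 to 61.1), to the right of the other 5 types in both libraries.

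Csf3r (chr4:126024550-126044440, plus strand), the G-CSF receptor, was found in monocytes and macrophages. Monocyte-like cells had 70.5 CPM (58.00 to 84.9) and 34.2 CPM (30.1 to 38.7). Macrophage-like cells had 56.9 CPM (51.4 to 62.9) and 35.8 CPM (33.9 to 37.9), with an interval that overlaps that of monocyte-like cells within each library. cDC2-like cells had 13.7 CPM (5.92 to 27.03) and 3.47 CPM (1.66 to 6.38), and no Csf3r UMI was seen in pDC-like cells. Thinned to 4000 UMIs, 22.6% and 14.7% of monocyte-like and 22.9% and 14.3% of macrophage-like cells had a UMI, against 0% and 0.306% of NK-like cells. As sequenced the monocyte-like shares were 53.4% and 22.5% and the NK-like shares 0.735% and 0.714%, at median depths of 10049 and 7726 UMIs in the former and 11830 and 16448 in the latter.

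Flt3 (chr5:147330741-147400489, minus strand), the receptor of FLT3 ligand, was highest in dendritic types. pDC-like cells had 116 CPM (78.9 to 165) and 64.7 CPM (37.7 to 104). Migratory dendritic cell-like cells had 63.8 CPM (29.2 to 121) and 78.1 CPM (62.5 to 96.4), and cDC1-like cells 62.99 CPM (39.9 to 94.5) and 77.2 CPM (64.3 to 91.9). The intervals of these 3 types overlap in each library. cDC2-like cells had 27.4 CPM (15.7 to 44.5) and 22.9 CPM (17.7 to 29.1), and macrophage-like cells 0.588 CPM (0.1603 to 1.51) and 0.879 CPM (0.597 to 1.25). At 4000 UMIs, 16.7% and 27.5% of cDC1-like and 38.1% and 17.6% of pDC-like cells had a UMI (33.3% and 66.2%, and 71.4% and 35.3%, as sequenced), and 0% and 0.257% of macrophage-like cells did (1.09% and 1.13% as sequenced).

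Among types of at least 50 cells in a library, the leading type of a member was the same in both libraries for 3 of 9 members, Csf1, Flt3l and Csf1r. Of 9407 genes that reached 10 CPM in both libraries, 47.4% had the same leading type, against 3 of the 7 members that reached it. Libraries differed in which types passed 50 cells, so the leading type could differ for that alone. With types of at least 50 cells in both libraries the count was 5 of 9, all 5 among the 7 members that reached 10 CPM, against 60.2% of genes at that level. With types of at least 10 cells it was also 5 of 9, all among the 8 members at that level, against 52.1% of genes. With so few members these shares say nothing particular about the family.

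Along the range from monocyte-like to macrophage-like cells the receptors took different courses. The cells of both gates were pooled and binned by macrophage marker UMIs per 10000, at limits of 10, 40, 100 and 200. Csf1r went from 381 CPM in the lowest bin to 637 CPM in the highest in library 1, and from 272 to 739 CPM in library 2. It was higher in each bin than in the one before in library 2, and in library 1 except between the second bin (481 CPM, 25 cells) and the third (457 CPM). Csf2rb went the other way, from 215 to 105 CPM in library 1 and from 207 to 104 CPM in library 2. In library 1 its second bin was an exception, at 117 CPM before 156 CPM in the third. Csf2ra ended at 172 CPM from 179 CPM in library 1, within counting error, and at 152 CPM from 203 CPM in library 2. Csf3r was lowest in the middle bin, at 43.1 and 17.5 CPM, and stood at 73.4 and 42.6 CPM in the highest. In library 1 the interval of that middle bin (32.2 to 56.5) overlaps those of the bins on either side. These courses are descriptions of cells within 1 library each, and the same UMIs set the bins and the depth.

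Macrophage-like cells that were cycling had less Csf3r in both libraries. The level was 23.8 CPM in 44 cycling and 64.2 CPM in 323 other cells of library 1, and 20.7 CPM in 284 and 39.1 CPM in 1663 cells of library 2. The intervals do not overlap in either library. The cycling cells were also deeper, with medians of 26476 against 15676 UMIs in library 1 and 20752 against 16316 in library 2. Csf1r differed by a smaller factor, at 499 against 588 CPM and 617 against 674 CPM. Csf2rb2 was at 26.2 against 34.2 CPM and 21.99 against 32.4 CPM, with overlapping intervals in library 1 and separate ones in library 2.

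**Figure D4:**
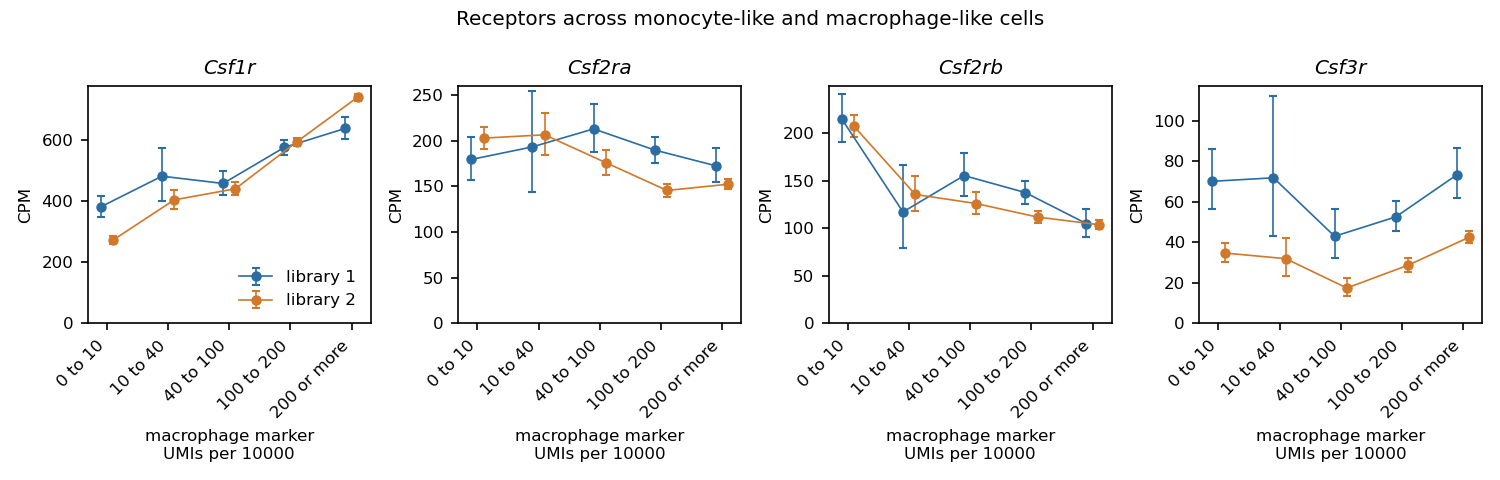
Levels of Csf1r, Csf2ra, Csf2rb and Csf3r (CPM, vertical axes) in monocyte-like and macrophage-like cells binned by macrophage marker UMIs per 10000 (horizontal axes), with exact 95% Poisson intervals, library 1 in blue and library 2 in orange. Csf1r reaches 637 and 739 CPM in the highest bin, Csf2rb ends at 105 and 104 CPM, and Csf3r is lowest in the middle bin. In library 1 the Csf3r interval of that bin overlaps those of the bins on either side.

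The libraries were then set against each other within the 5 types that had at least 100 cells in both. In these, 24 pairs of a member and a type had at least 100 UMIs over both libraries. A pair was counted as apart where the CPM differed at least 2-fold and the interval of the ratio excluded 1.5-fold, and 6 of the 24 were. Ratios are log2 of library 1 over library 2.

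In macrophage-like cells 0 of 7 members were apart, against 3.89% of 10083 genes. Csf1r was slightly higher in library 2, at a log2 ratio of -0.22 (-0.26 to -0.17). Csf3r was higher in library 1, at 0.67 (0.50 to 0.83), as were Csf2ra at 0.31 (0.22 to 0.40) and Csf2rb at 0.28 (0.17 to 0.38). The median over the 7 members was 0.21 and that over all genes 0.05. In monocyte-like cells 1 of 6 members was apart, against 3.64% of 5996 genes: Csf3r, at 70.5 CPM and 34.2 CPM, which gives 1.04 (0.71 to 1.37) on the log2 scale. Csf1r followed at 0.41 (0.28 to 0.54), and Csf2rb was at 0.05 (-0.14 to 0.22). The members' median was 0.09 and that of all genes 0.14.

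In T cells the receptors, and not Flt3l, were apart, with the higher level in library 2 each time. In CD8 T-like cells 3 of 4 members were, against 9.49% of 7428 genes. Csf1r was at 6.81 and 23.6 CPM, or -1.79 (-2.65 to -1.04) on the log2 scale. Csf2ra was at -1.53 (-2.52 to -0.69), and was apart in 4 of 9 alternatives, which gave log2 ratios from -3.93 to 0.10. Csf2rb was at -2.91 (-4.38 to -1.77). Flt3l, with 36.3 and 50.98 CPM, was at -0.49 (-0.85 to -0.15). In other T-like cells 2 of 3 were apart, against 6.21% of 6412 genes. Csf1r had no UMI in library 1 and 139 in library 2, and with library 1 set to the floor of 3 UMIs its log2 ratio was at most -3.43, with a counting interval of -5.72 to -1.85. Csf2rb had 1 UMI in library 1 and 110 in library 2, a log2 ratio of -4.68 (-9.99 to -2.17). In NK-like cells 0 of 4 were apart, against 4.58% of 8275 genes, with Csf1r at -1.75 (-3.39 to -0.49) and Flt3l at -0.12 (-0.40 to 0.15). The members' medians were -1.66, -3.43 (the value set by that floor) and -1.59 in these 3 types, and those of all genes -0.14, -0.06 and 0.11.

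Macrophage marker RNA moved with these lymphocyte values. The 7 macrophage markers summed to 42.7 and 245 CPM in the CD8 T-like cells of libraries 1 and 2, with none at 0 in either library. In other T-like cells the sums were 39.6 and 177 CPM, with 2 markers at 0 in library 1. Spi1, which encodes PU.1, was at 1.36 and 37.9 CPM in CD8 T-like cells. Leaving out T and NK cells with at least 3 macrophage marker UMIs per 10000 took 5 of 212 and 124 of 689 CD8 T-like cells away. Csf1r was then at 6.902 and 17.2 CPM there and Csf2rb at 2.76 and 16.3 CPM, and 4 pairs were apart over the 5 types. Csf1r and Csf2ra in CD8 T-like cells were then no longer apart, and Csf2rb still was. Free RNA in the 5 compared types was estimated at 2.36% to 7.01% of UMIs, and after its subtraction Csf1r stood at 3.75 and 14.6 CPM in CD8 T-like cells. With Leiden clusters in place of the gates, 0 pairs were apart and Csf1r in CD8 T-like cells had a log2 ratio of 0.46. Library and cell makeup cannot be told apart here, and the part of macrophage RNA in the values was not tested. In regulatory T-like cells, too few for the comparison, Csf2rb was at 4.03 and 73.1 CPM. It was at 4.04 and 50.3 CPM without the cells that held macrophage markers. Their removal left Spi1 unequal between libraries, at 5.78 and 61.4 CPM in regulatory T-like cells and 1.38 and 29.8 CPM in CD8 T-like cells.

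**Figure D5:**
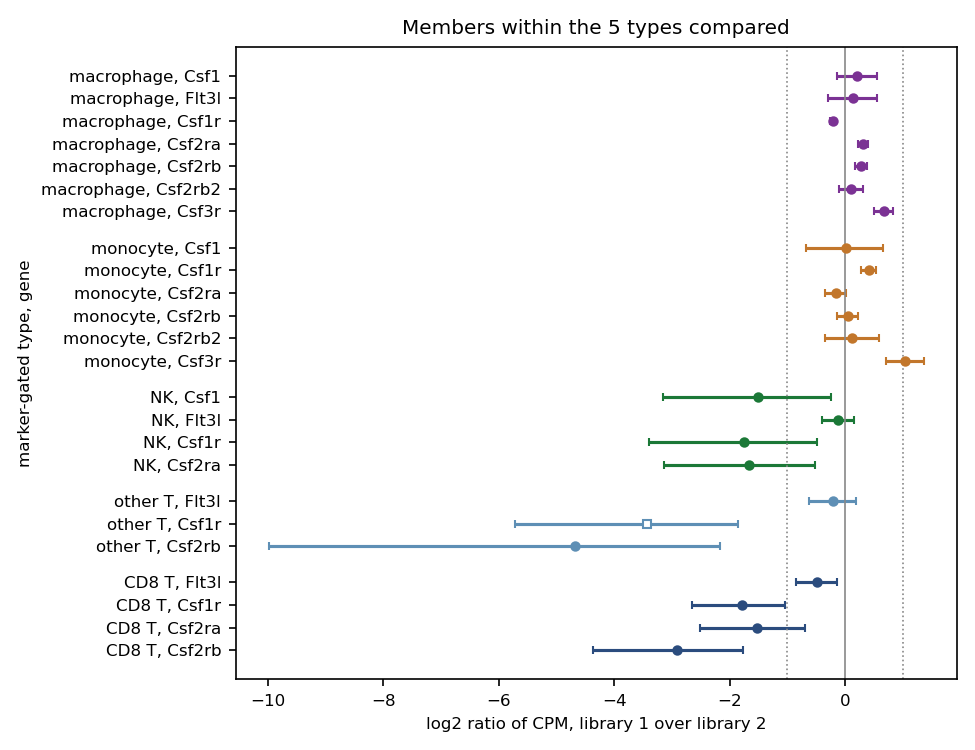
Log2 ratios of CPM, library 1 over library 2 (horizontal axis), for the 24 pairs of a type and a gene (vertical axis), with exact 95% conditional intervals and dotted lines at 2-fold. The open square is Csf1r in other T-like cells, set to the floor of 3 UMIs in library 1. Pairs in monocytes and macrophages lie within 2-fold, apart from Csf3r in monocytes at 1.04, while receptors in CD8 T and other T cells lie between -1.53 and -4.68.

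The signalling partners of the receptors were taken from 4 lists. Their leading types are read against the same 47.4% of genes. Of 8 other ligands and receptors of the same families, 4 reached 10 CPM in both libraries, and Il34 and Kitl had the same leading type in both. Of 11 genes of JAK2-STAT signalling and its feedback, which beta-chain receptors use, 11 reached it and 4 kept their leading type: Cish in regulatory T-like cells, Pim1 and Mcl1 in monocyte-like cells and Bcl2l1 in macrophage-like cells. Pim1, a kinase induced by this pathway, had 1050 CPM and 867 CPM in monocyte-like cells. Of 12 adaptor, kinase and shedding genes, 12 reached it and 7 kept their leading type, among them Tyrobp, Fgr and Lyn in monocyte-like and Gab2, Adam17 and Adam10 in macrophage-like cells. Adam17, the protease that sheds CSF1R, had 115 CPM and 87.7 CPM. Of 13 myeloid transcription factors, 12 reached it and 7 kept theirs, among them Spi1, Cebpb and Runx1 in monocyte-like and Cebpa, Maf and Tcf4 in macrophage-like cells.

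Between libraries, 13 of 33 list genes with enough UMIs were apart in CD8 T-like cells (9.49% of all genes), 8 of 31 in other T-like (6.21%), 6 of 32 in NK-like (4.58%), 3 of 36 in macrophage-like (3.89%) and 0 of 33 in monocyte-like cells (3.64%). In macrophage-like cells 1 of 11 JAK2-STAT genes was apart (Jak2, higher in library 1), and 0 of 12 adaptor genes and 2 of 12 transcription factors were (Irf4 and Batf3, both higher in library 1). In CD8 T-like cells 5 of 11 adaptor genes were apart, all higher in library 2 and among them Plcg2, Tyrobp, Fgr and Lyn, with 3 of 10 transcription factors, Spi1 and Irf8 among them, in the same direction. Tyrobp was at 40.8 and 511 CPM and Lyn at 9.53 and 49.9 CPM in these cells. JAK2-STAT genes in CD8 T-like cells were divided, with 2 of 11 higher in each library.

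Genes whose levels ran most like each member were found over 9 types of at least 50 cells in both libraries, as 18 points of log2(CPM + 1), among 9181 genes. These correlations are descriptions, since points share libraries, depth and free RNA. Csf1 was most like Ehd2, Flrt2 and Palld (Pearson r from 0.92 to 0.93), and Flt3l most like Sh2d2a, Txk and Il2rb (0.98). Csf1r was most like C3ar1, Aif1 and Pilra (0.98 to 0.99). Csf2ra was most like Ms4a6d, Ctsh and Ms4a6c (0.98), Csf2rb most like Fcgr1, Cd300a and Ctsh (0.98 to 0.99), and Csf2rb2 most like Pirb, Cd300a and Gm6377 (0.98). Csf3r was most like Tifab, Clec4a3 and Adap2 (0.98 to 0.99). Csf2 was most like Cnot3, Epm2aip1 and Fam204a, with lower values of 0.74 to 0.78. Its highest points rest on few cells. In library 1, 1 cell held 12 of 17 UMIs in CD4 T-like and 1 cell 25 of 29 in NK-like cells. Flt3 reached 5.17 CPM at most in these types, since pDC, cDC1 and migratory cells were too few in library 1, and was not matched.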

How the data were processed

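Single CD45+ cells of 2 groups were profiled with 1 library each. The values are UMI counts that the authors deposited as a single pooled matrix (31053 genes, 12514 barcodes), with no normalization. Per the submitters' processing notes the tool was Cell Ranger and the build mm10, and the file headers give version 3.1.0. For the annotation, the counted strand, cell calling and subsampling, the answer is the same: not given in the sources used here. Barcode endings name the library, 8 barcode sequences occur in both, and none of the sources maps endings to groups.

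Barcodes with under 200 genes, under 500 UMIs or over 10% mitochondrial UMIs were dropped (79 and 96 for mitochondrial UMIs, 0 and 1 for genes). Scrublet's automatic threshold marked 0.0% of barcodes, so the 5% with the highest scores (266 and 360) were removed as doublets. The lowest cell kept had 4166 and 4810 UMIs. Depth sets the precision: library 1 kept 51769078 UMIs and library 2 kept 134639495.

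Cells were gated on summed UMIs per 10000 of 25 marker lists (156 genes, none a member), with at least 3 distinct markers (2 for cDC2). Cells of more than 1 lineage were left out as mixed and those of none as ungated. Monocyte markers did not count as a second lineage in cells over the T, NK, B or pDC limit, so such cells stayed in their gates. CD8 T-like cells had a median of 28.25 monocyte marker UMIs per 10000, where the monocyte limit was 25. Gate limits were chosen after seeing the data, and the members and lists with earlier results of these data known. UMIs were summed per type and library and given as CPM. Intervals are exact at 95%. In ratios a library without a UMI took the value of 3 UMIs. Cells were thinned at random to 4000 UMIs for shares, and none was shallower. Named genes are the members, the 44 genes of 4 pathway lists, marker genes that check a gate, and for each member the 3 genes with the highest correlation of levels. Some genes of the pathway lists are counted but not reported here by name. A test of the ratio on simulated counts is not reported here. Alternatives were Leiden clusters, doubled gate limits, doublets kept, 5% mitochondrial UMIs, cells of at least 10000 UMIs, equal cell weights, free RNA subtracted, another scaling, other fold limits and, chosen after seeing the data, other minimum cell numbers and the removal of T and NK cells with macrophage markers. Python 3.11.15, numpy 2.4.6, scipy 1.17.1, pandas 2.3.3, scanpy 1.11.5 and matplotlib 3.10.9 were used. Positions come from GENCODE on GRCm38, and upstream sequences from RefSeq on GRCm38.p6.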

Additional observations from a re-analysis of the deposited data

How the results depend on the processing

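The count of members with the same leading type, 3 of 9, was 2 to 4 under the 8 alternatives on gates, cells and free RNA that keep the 50-cell minimum, and 5 both with types of at least 10 cells and with types of at least 50 cells in both libraries. With at most 5% mitochondrial UMIs or at least 10000 UMIs, the Ptprc-low ranges of library 1 dropped out of the ranking, and Csf1 then led in CD4 T-like and macrophage-like cells. Levels of at least 10 CPM numbered 78 of 207 and 56 to 82 under the alternatives. Cells with a UMI in at least 10% of a type were found for 78 of these 207 pairs as sequenced and for 51 after thinning to 4000 UMIs. The 6 member and type pairs apart between libraries became 0 with Leiden clusters, 10 with a 1.5-fold limit (14.0% to 32.0% of genes by type), 9 with doublets kept, 8 with doubled gate limits, 4 with a 3-fold limit (0.884% to 4.08% of genes) and 4 without T and NK cells that held macrophage markers. The cause was not tested, apart from the limits, which set the count by construction. Of 216 ratios under alternatives, 198 kept their side of the limit, 9 fell short of it and 7 passed it. The other 2 were of pairs apart before and changed sign: with Leiden clusters, Csf1r and Csf2ra in CD8 T-like cells had log2 ratios of 0.46 and 0.10. Some ratios of pairs that were not apart changed sign as well. Csf1 in NK-like cells, at -1.50, ranged from -2.04 to 0.64. Csf3r in monocyte-like cells ranged from 0.84 to 1.20. No paired analysis was possible because each group has 1 library and the labels give no replicate numbers. Csf2 is limited by its 86 and 206 UMIs, and the dendritic types of library 1 by their 11 to 36 cells.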
